A study of Mus musculus with 12 samples.

Results

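The galectins are a family of proteins that bind beta-galactoside sugars on glycoproteins and glycolipids. Described here are 7 genes, of 30142 measured by gene symbol in mouse pancreas: the galectin genes Lgals1, Lgals2, Lgals3, Lgals4, Lgals8 and Lgals9, together with Lgals3bp. The last encodes galectin-3-binding protein, a secreted scavenger receptor family glycoprotein that galectins bind and that is itself no galectin. They were chosen by family, after Lgals9 had been singled out by its difference between the genotypes in these same arrays. Differences between genotypes are therefore given for the family as a description, without a test. The samples were 12 RNA samples of pancreas from mice aged 6 months, each with its own array. Of these, 6 were controls of genotype Pdx1/Cre, with the Cre recombinase under the promoter of the pancreatic transcription factor gene Pdx1. The other 6, called HuR samples, had the genotype Pdx1/Cre + Traffic-HuR and carried the Cre driver and in addition a HuR transgene. Both groups thus shared the Pdx1/Cre allele. HuR, the product of Elavl1, is an RNA-binding protein of AU-rich messages, and the study asked how the pancreas differed when it was elevated. Strain is not given in the sources used here, nor is it said whether each array came from a separate mouse, so the errors below measure the spread between arrays. The Pdx1 promoter is active in progenitors of acinar, duct and islet cells, while the RNA was taken from whole pancreas with all its cell types.

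Galectins are made without a signal peptide and reach the cell surface by an unconventional route. Outside the cell they crosslink glycoproteins into lattices, and inside it some of them mark damaged membranes. They are grouped by structure. Galectin-1 and galectin-2 are small prototype galectins with a single carbohydrate-recognition domain, galectin-3 is the chimeric form with a long N-terminal tail, and galectin-4, galectin-8 and galectin-9 are tandem-repeat forms that join a pair of such domains by a linker. Galectin-9 is known as a ligand of the T cell receptor protein TIM-3 and as a product of interferon-stimulated cells. Galectin-1 is typical of fibroblasts and stellate cells, galectin-3 of macrophages and injured epithelium, and galectin-4 of the intestinal epithelium.

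The promoters of Lgals9 and Lgals3bp are shown because these were the members with the highest differences between genotypes and because both genes are known to respond to interferon. RefSeq promoter sequences of build GRCm38.p6, which run from 250 bases before a gene's start to 50 bases after it, were found for 6 of the 7 members. They were searched on both strands for the interferon-stimulated response element, taken as GAAA, any 2 bases and GAAA again, for the shorter core bound by interferon regulatory factors (AANNGAAA), which every match to the response element contains, and for the gamma-activated site (TTCNNNGAA). Capitals mark matches to the first and the shorter motif, and both sequences are given 5′ to 3′ on the gene's strand, the minus strand of chromosome 11.
Lgals9 promoter, chr11:78984875-78985174: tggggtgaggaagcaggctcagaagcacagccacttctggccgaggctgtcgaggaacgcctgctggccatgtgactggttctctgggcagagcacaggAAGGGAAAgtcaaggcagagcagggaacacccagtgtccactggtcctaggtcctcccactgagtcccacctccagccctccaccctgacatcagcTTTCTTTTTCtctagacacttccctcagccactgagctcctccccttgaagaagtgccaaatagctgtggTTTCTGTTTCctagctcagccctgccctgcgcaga
Lgals3bp promoter, chr11:118401910-118402209: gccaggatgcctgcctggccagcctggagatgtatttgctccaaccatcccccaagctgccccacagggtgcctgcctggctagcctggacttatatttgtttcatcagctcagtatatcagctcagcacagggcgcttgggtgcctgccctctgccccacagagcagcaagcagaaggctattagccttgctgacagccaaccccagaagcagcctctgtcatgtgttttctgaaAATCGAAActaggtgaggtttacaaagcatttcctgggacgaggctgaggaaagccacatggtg
The Lgals9 window held 2 matches to the response element, both on the opposite strand, which read TTTCTTTTTC from 55 bases before the gene's start and TTTCTGTTTC from 15 bases after it. Among all 32851 promoter windows of this length, 3.44% held at least 1 such match and 0.225% held 2 or more. Its other AANNGAAA match read AAGGGAAA and began 151 bases before the start. The Lgals3bp window held no match to the response element and a single AANNGAAA match, AATCGAAA, which began 14 bases before the start. That shorter motif occurred in 23.9% of all windows. None of the windows of Lgals2, Lgals3, Lgals4 and Lgals8 held a match to any of the motifs, and TTCNNNGAA, present in 8.3% of all windows, was found in none of the family's windows. These matches describe letters in the windows and do not show binding.

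Expression is given as log2 values from robust multi-array averaging (RMA) as deposited, so that 1 unit is a 2-fold difference, and levels of different genes are not set against each other because their probes differ. The median level of an array lay between 4.42 and 4.60, that of the background rows at 3.742, and the median row stood at 4.516. All 7 members lay above the median row, each on 1 row, and none shared a value between arrays, so none was limited by the upper end of the scale at 19.9, where 139 genes stood on all arrays. The correlation between arrays over genes was 0.971 to 0.996. The arrays of control replicate 2 and HuR replicate 2 stood apart, with the lowest median correlations with the other arrays, 0.9894 and 0.9803. Several of the results below, though not all, are given without them too. The mean of Elavl1 was 5.99 ± 0.12 (SD, n = 6) for controls and 6.23 ± 0.14 (SD, n = 6) for HuR samples, with 5 of 6 HuR arrays above every control. This difference of 0.24 (SE 0.0744), or 1.18-fold, was not called (adjusted p = 0.824 with limma). Probe positions are not known here, so whether the Elavl1 row detects the transgene's message was not examined. The arrays measure RNA of whole tissue and not HuR protein. Of all genes 3.11% had 4 or more HuR arrays above every control. In the fit over all genes with limma, 0 of 30142 genes passed an adjusted p under 0.05, the family included (0% called), while 1762 genes (5.85%) had an unadjusted p under 0.05. An ordinary linear model also called 0, with 1610 genes at an unadjusted p under 0.05.

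**Figure D1:**
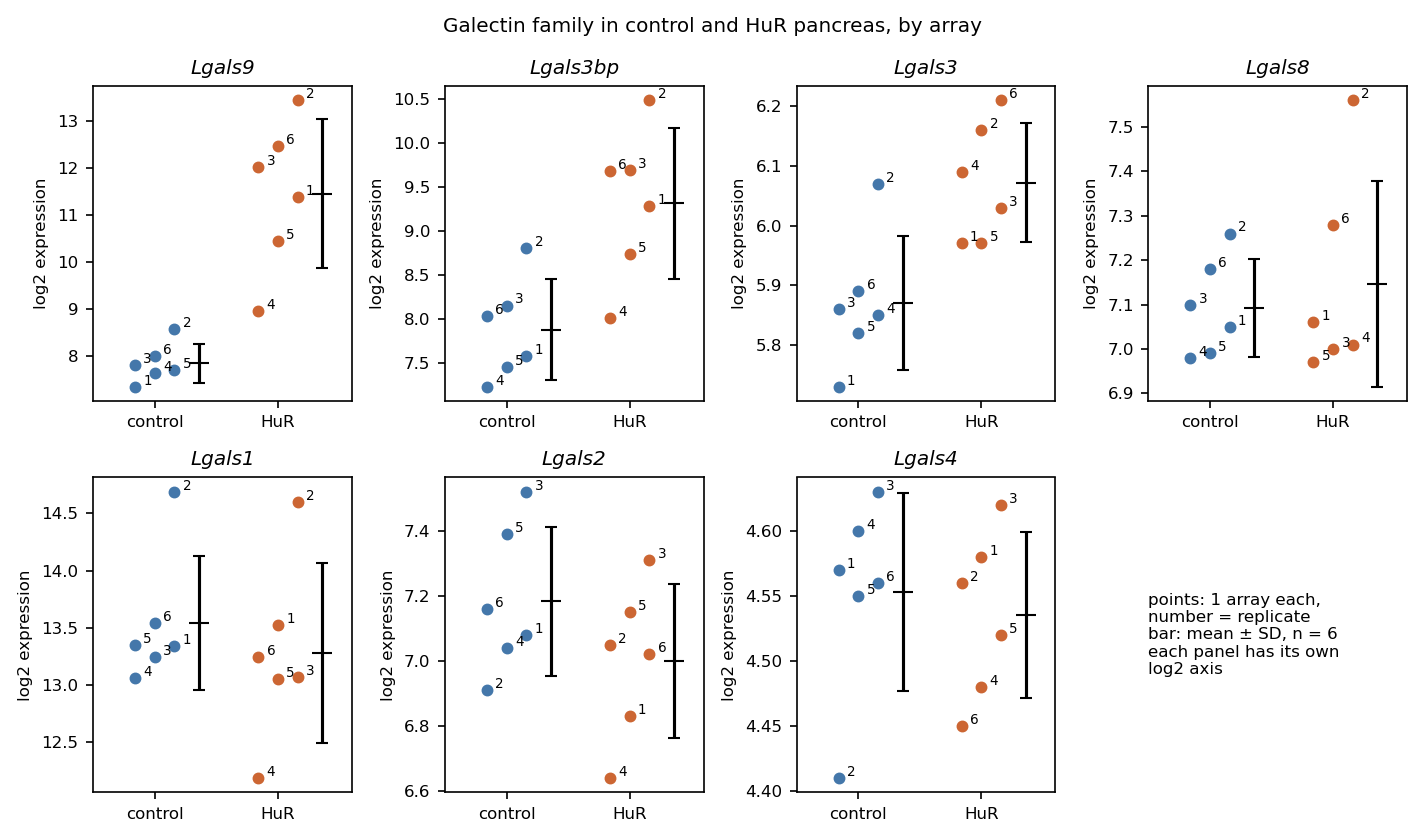
Log2 expression of the 7 family members on each array, by genotype; points are single arrays numbered by replicate, bars are the mean ± SD of 6 arrays, and each panel has its own axis. The groups are apart for Lgals9, where the lowest HuR array stands at 8.95 and the highest control at 8.57, and overlap for the other 6 members.

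Lgals9 was the member with the highest difference between genotypes. Among the controls its level was 7.35 at the lowest, 7.75 at the median and 8.57 at the highest, the last in control replicate 2. Among the HuR arrays it was 8.95, 11.7 and 13.44. The groups did not overlap, although only 0.38 log2 units separated HuR replicate 4 from control replicate 2. Controls averaged 7.84 ± 0.42 (SD, n = 6) and HuR samples 11.45 ± 1.58 (SD, n = 6), so that the HuR mean was higher by 3.61 (SE 0.618) or 12.2-fold, with a 95% interval from 2.26 to 4.96. It was the fourth highest difference of all 30142 genes. HuR arrays lying above all controls in 6 of 6 cases were found in 1 of the 7 members and in 0.166% of all genes, a separation that the choice of Lgals9 had used.

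The size of the Lgals9 difference varied widely among the HuR arrays. Over the control mean, the level was 2.16-fold in HuR replicate 4 and 6.11-fold in replicate 5. It was 11.7-fold in replicate 1, 18.1-fold in replicate 3, 24.5-fold in replicate 6 and 48.3-fold in replicate 2. The HuR arrays thus spanned 4.48 log2 units against 1.23 among the controls, and only 0.398% of all genes had a larger SD within the HuR group. Without control replicate 2 and HuR replicate 2 the difference was 3.36 (SE 0.576). Leaving out each array in turn gave differences from 3.21, without HuR replicate 2, to 4.11, without HuR replicate 4.

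Lgals3bp, whose product is a ligand of galectin-3 and other galectins, had the next highest difference. Its control values were 7.23, 7.81 and 8.80 at the lowest, median and highest array, and its HuR values 8.01, 9.48 and 10.48. In 4 of 6 HuR arrays it lay above every control, as did 3.11% of all genes in 4 or more arrays, while HuR replicate 4 and HuR replicate 5 lay within the control range. Controls averaged 7.87 ± 0.57 (SD, n = 6) and HuR samples 9.31 ± 0.86 (SD, n = 6), which differ by 1.44 (SE 0.39) or 2.71-fold. Lgals9 and Lgals3bp were the 2 members with at least a 2-fold higher mean in the HuR samples, a size reached by 0.594% of all genes. No member had a 2-fold lower mean, which 0.0133% of all genes had. Without the arrays that stood apart, Lgals3bp differed by 1.39 (SE 0.333).

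Lgals3, the chimeric galectin, had a small difference. Its values ran from 5.73 over 5.85 to 6.07 in the controls and from 5.97 over 6.06 to 6.21 in the HuR samples. Control replicate 2 alone reached into the HuR range, at 6.07 against 5.89 for the next control. The difference was 0.20 (SE 0.0611), or 1.15-fold.

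Lgals8, the tandem-repeat galectin that inside cells recognises glycans of damaged vesicles, overlapped between the groups almost fully. Its control values were 6.98, 7.07 and 7.26, and its HuR values 6.97, 7.04 and 7.56. The highest HuR value came from replicate 2, and the difference of 0.06 (SE 0.0993) was smaller than the SD within either group. It turned to -0.03 (SE 0.0692) without HuR replicate 2.

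Lgals1, the prototype galectin of mesenchymal cells, was at 13.06, 13.34 and 14.69 in the controls and at 12.18, 13.16 and 14.60 in the HuR samples. Replicate 2 was the highest array in both groups, and HuR replicate 4 was the lowest of all 12. The difference of -0.26 (SE 0.372) lay within the spread of the arrays, with a 95% interval from -1.07 to 0.55. It was -0.52 once HuR replicate 2 was left out and -0.03 once control replicate 2 was.

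Lgals2, the other prototype galectin, was at 6.91, 7.12 and 7.52 in the controls and at 6.64, 7.03 and 7.31 in the HuR samples, which differ by -0.18 (SE 0.126). Lgals4 was at 4.41, 4.56 and 4.63 against 4.45, 4.54 and 4.62, a difference of -0.02 (SE 0.0439). Its row lay barely above the median row, and 0 of 6 measured markers of the intestinal epithelium, the tissue known for galectin-4, lay above it. The Lgals4 row also carries the identifier of a further gene in the annotation, and a near-identical paralog could share its probes.

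Lgals9 was then set against each other member within the same arrays, again as a description. On every HuR array the level of Lgals9 minus that of any other member was above the same quantity on all controls. This excess of Lgals9 was 2.17 (SE 0.324) over Lgals3bp and ran from 3.41 (SE 0.641) over Lgals3 to 3.87 (SE 0.416) over Lgals1. Over Lgals8, Lgals4 and Lgals2 it was 3.55 (SE 0.593), 3.63 (SE 0.666) and 3.79 (SE 0.636). The choice of Lgals9 had used its separation between the groups, so the separation of these quantities was largely set in advance.

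**Figure D2:**
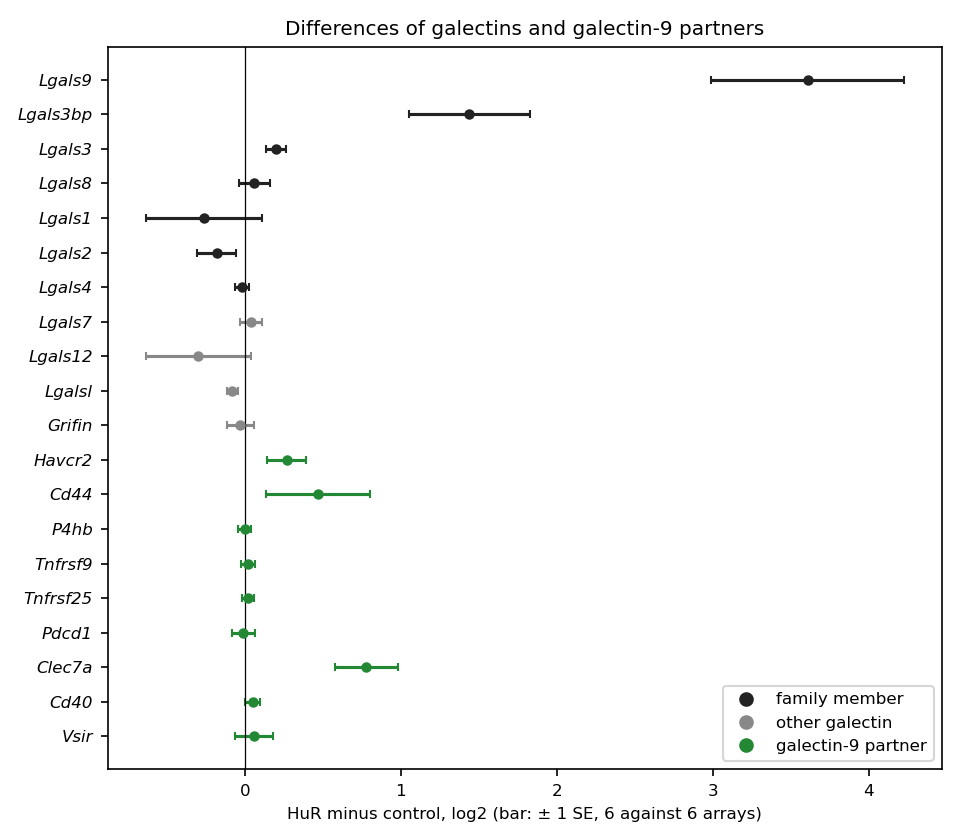
HuR minus control differences on the log2 scale, with bars of ± 1 SE, for the 7 family members, 4 further galectin genes and 9 genes of described galectin-9 partners. Lgals9 at 3.61 and Lgals3bp at 1.44 lie far to the right, and the next highest is Clec7a at 0.78.

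The remaining galectin genes showed no difference of the size of Lgals9. Of 5 listed genes 4 were measured under their own symbol, and 0 passed the test over all genes with limma. Of the 4, 1 had an unadjusted p under 0.05, as 5.85% of all genes did. Lgals12, a galectin of adipocytes, differed by -0.30 (SE 0.337), with HuR replicate 4 far below the rest at 8.15. The galectin-like gene Lgalsl differed by -0.08 (SE 0.0352), Lgals7, the galectin of stratified epithelia, by 0.04 (SE 0.0688) and Grifin, a lens protein related to galectins, by -0.03 (SE 0.0862). The median difference of the list was -0.06, against 0.00 over all genes.

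Among 9 genes whose products are described partners of galectin-9, 7 had a higher and 2 a lower mean with the HuR transgene, with a median difference of 0.05. Over all genes 47.9% had a higher mean and 5.85% an unadjusted p under 0.05. Of the 9 genes, 0 reached the limma threshold and 1 had an unadjusted p under 0.05. That gene was Clec7a, which encodes the myeloid beta-glucan receptor Dectin-1, with a HuR mean of 6.12 ± 0.45 (SD, n = 6) and a control mean of 5.34 ± 0.29 (SD, n = 6), which differ by 0.78 (SE 0.203). In 5 of 6 HuR arrays it lay above all controls. Havcr2, which encodes TIM-3, was near the median row and differed by 0.27 (SE 0.125). The adhesion receptor gene Cd44 differed by 0.47 (SE 0.332). P4hb, the protein disulfide isomerase that galectin-9 binds on T cells, held the same value on 8 arrays, so that its difference of 0.00 (SE 0.0416) may be compressed. The checkpoint receptor genes Pdcd1 and Vsir differed by -0.01 (SE 0.0737) and 0.06 (SE 0.122), and the tumour necrosis factor receptor family genes Cd40, Tnfrsf9 and Tnfrsf25 by 0.05 (SE 0.0482), 0.02 (SE 0.0432) and 0.02 (SE 0.0362). Tnfrsf9 lay below the median row.

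Partners of galectin-1, galectin-3 and galectin-8 had higher means in 7 of 10 genes, where 47.9% of all genes did. Their median difference was 0.13, and 0 reached the limma threshold. The leukocyte phosphatase gene Ptprc, which encodes CD45, differed by 1.28 (SE 0.498), and the T cell surface gene Cd7, below the median row, by 0.11 (SE 0.046). These were the 2 members with an unadjusted p under 0.05, which 5.85% of all genes had. The enzymes that build the branched and galactose-capped glycans to which galectins bind had a median difference of 0.04 over 12 measured genes, 7 of them higher, and 0 had an unadjusted p under 0.05 or reached the limma threshold. Mgat2 and Mgat4a, which add branches to N-glycans, differed by 0.20 (SE 0.122) and -0.28 (SE 0.205). Genes of the response to damaged membranes, in which galectin-3 and galectin-8 act, had a median of -0.09, with 3 of 9 higher and again 0 at an unadjusted p under 0.05 or past the limma threshold. Of these the autophagy gene Atg16l1 differed by 0.12 (SE 0.0581) and the autophagy receptor gene Sqstm1 by -0.10 (SE 0.0676).

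The relation of Lgals9 to other genes was examined within each genotype, where the difference between the genotypes plays no part. Pearson correlations were computed over 6 arrays between Lgals9 and the 6 other members and the means of 18 gene lists, 48 relations in all, with exact two-sided permutation tests over 720 pairings and adjustment over the 48. The smallest p this design can give is 0.00139. In all, 9 relations passed an adjusted p under 0.05, 7 among the controls and 2 among the HuR arrays.

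**Figure D3:**
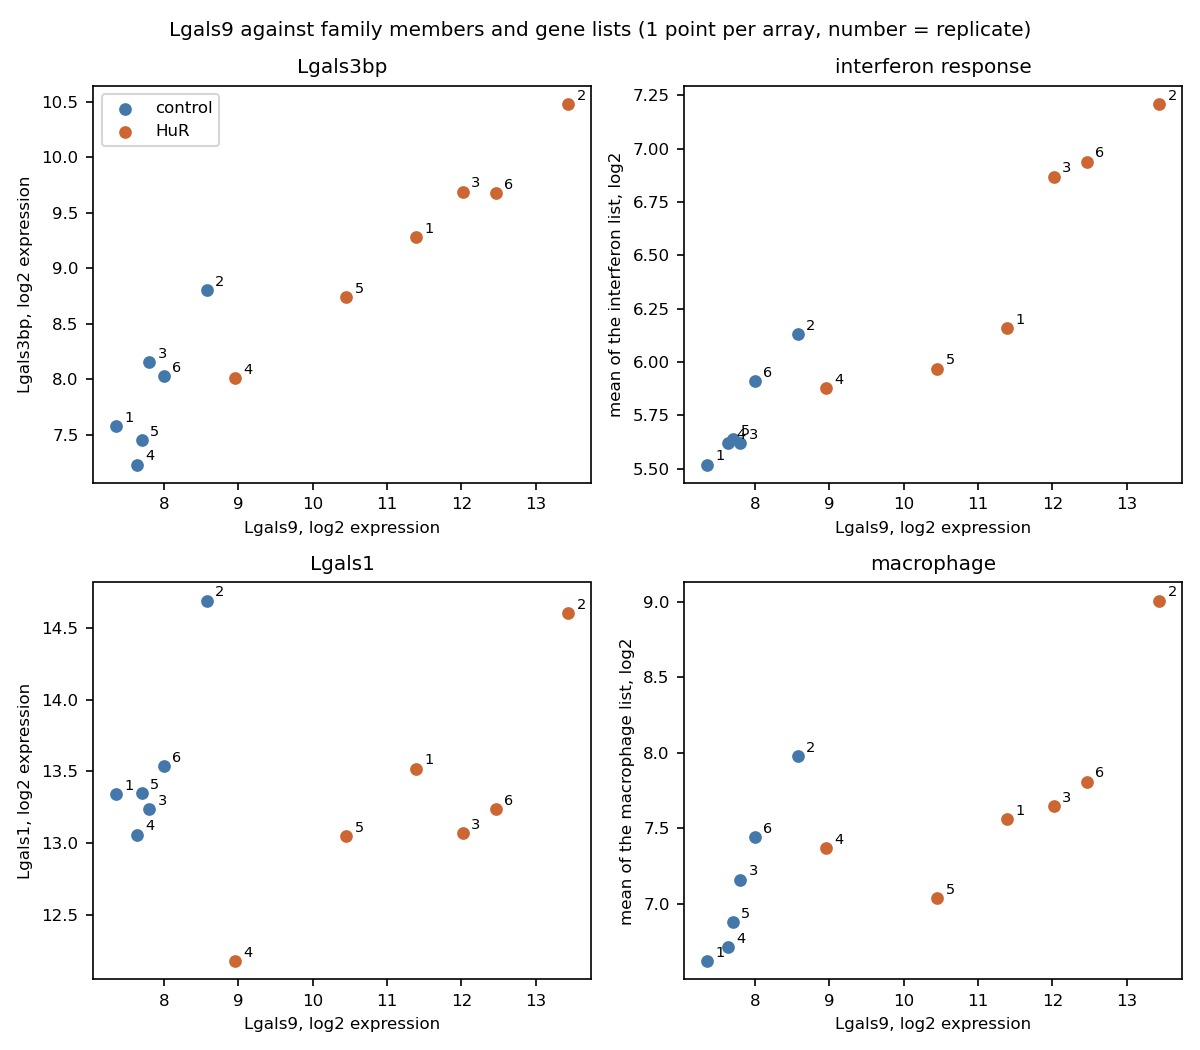
Log2 level of Lgals9 on each array against Lgals3bp, the mean of the interferon list, Lgals1 and the mean of the macrophage list, by genotype with replicate numbers. Within the HuR group Lgals3bp follows Lgals9 from 8.01 in replicate 4 to 10.48 in replicate 2, while Lgals1 has its extremes in the same arrays and a correlation of 0.15 over the other 4.

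Lgals3bp was the member that followed Lgals9 most closely among the HuR arrays, with r = 0.99 (exact permutation p = 0.00278, adjusted p = 0.0222, n = 6). Spearman's rho was 0.94 (exact permutation p = 0.0167, adjusted p = 0.0727). Without HuR replicates 2 and 4, the arrays farthest from the median of Lgals9, r was 0.98 over 4 arrays. Along this relation Lgals3bp was higher by 0.54 log2 units per unit of Lgals9, and by 1.18 among the controls. Among the controls r was 0.86 (exact permutation p = 0.0319, adjusted p = 0.102) and rho 0.77 (exact permutation p = 0.103), and without the arrays farthest from the median r was 0.80. All arrays of a relation share the RNA sample and its composition, so the values describe covariation between samples.

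Lgals3 followed Lgals9 among the controls, with r = 0.98 (exact permutation p = 0.00417, adjusted p = 0.025, n = 6) and rho = 0.94 (exact permutation p = 0.0167, adjusted p = 0.0727), and with r = 0.80 without the 2 farthest arrays. The call was lost by rho and by quantile normalization of the arrays, where r was 0.93 (adjusted p = 0.0606, exact permutation). Among the HuR arrays its r was 0.46 (exact permutation p = 0.358, adjusted p = 0.437) and rho 0.60 (exact permutation p = 0.242), or r = 0.80 without the 2 farthest. The difference between these correlations was not tested. Lgals1 had r = 0.88 in the controls and 0.87 in the HuR arrays (exact permutation p = 0.0403 and 0.0347, adjusted p = 0.107 and 0.104), with rho = 0.71 and 0.83 (exact permutation p = 0.136 and 0.0583). Without the 2 farthest arrays it was 0.86 and 0.15, so that in the HuR group the relation rested on replicates 2 and 4. Lgals8 had r = 0.85 and 0.76 (exact permutation p = 0.0236 and 0.0708, adjusted p = 0.081 and 0.162), with rho = 0.83 and 0.71 (exact permutation p = 0.0583 and 0.136) and r = 0.98 and 0.73 without the 2 farthest. Lgals2 had r = -0.34 and 0.56 (exact permutation p = 0.542 and 0.231, adjusted p = 0.605 and 0.32). Lgals4 had r = -0.77 and 0.35 (exact permutation p = 0.103 and 0.489, adjusted p = 0.19 and 0.559). Without the 2 farthest arrays these were 0.06 and 0.02 for Lgals2 and -0.23 and -0.11 for Lgals4. Like Lgals1 and Lgals8, neither had an adjusted p under 0.05 in either group.

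Of the gene lists, the interferon response passed in both genotypes. Its r with Lgals9 was 0.96 among the controls (exact permutation p = 0.00556, adjusted p = 0.0296, n = 6) and 0.93 among the HuR arrays (exact permutation p = 0.00278, adjusted p = 0.0222, n = 6). Spearman's rho was 0.83 and 1 (exact permutation p = 0.0583 and 0.00278, adjusted p = 0.187 and 0.0267), and r was 0.89 and 0.95 without the 2 farthest arrays of each group. The list mean was higher by 0.54 log2 units per unit of Lgals9 in the controls and by 0.33 in the HuR samples. Lists with r of like size that passed in neither group follow, with controls first. Galectin-9 partners had 0.90 and 0.89 (exact permutation p = 0.0222 in both groups, adjusted p = 0.081). T cells had 0.85 and 0.90 (adjusted p = 0.107 and 0.06, exact permutation). Further galectins had -0.85 and 0.82 (adjusted p = 0.0727 and 0.12, exact permutation). Without the 2 farthest arrays these were 0.63 and 0.74, -0.01 and 0.86, and -0.55 and -0.30.

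Among the controls 5 more lists passed: macrophages with r = 0.98, fibroblasts and stellate cells with 0.97, mesothelium with 0.97, the partners of galectin-1, galectin-3 and galectin-8 with 0.99 and B cells with 0.95 (exact permutation p = 0.00139 for the first 4 and 0.00417 for B cells, adjusted p = 0.0167 and 0.025, n = 6). Spearman's rank correlation was 1 for the first 4 (exact permutation p = 0.00278, adjusted p = 0.0267) and 0.94 for B cells (exact permutation p = 0.0167, adjusted p = 0.0727). Without the 2 farthest arrays they stood at 0.99, 0.98, 0.97, 0.99 and 0.78. Among the HuR arrays the same lists had r = 0.78, 0.69, 0.28, 0.70 and 0.74 (exact permutation p = 0.075, 0.124, 0.592, 0.138 and 0.0833), with adjusted p from 0.164 to 0.633. Whether these correlations differ between the genotypes was not tested.

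**Figure D4:**
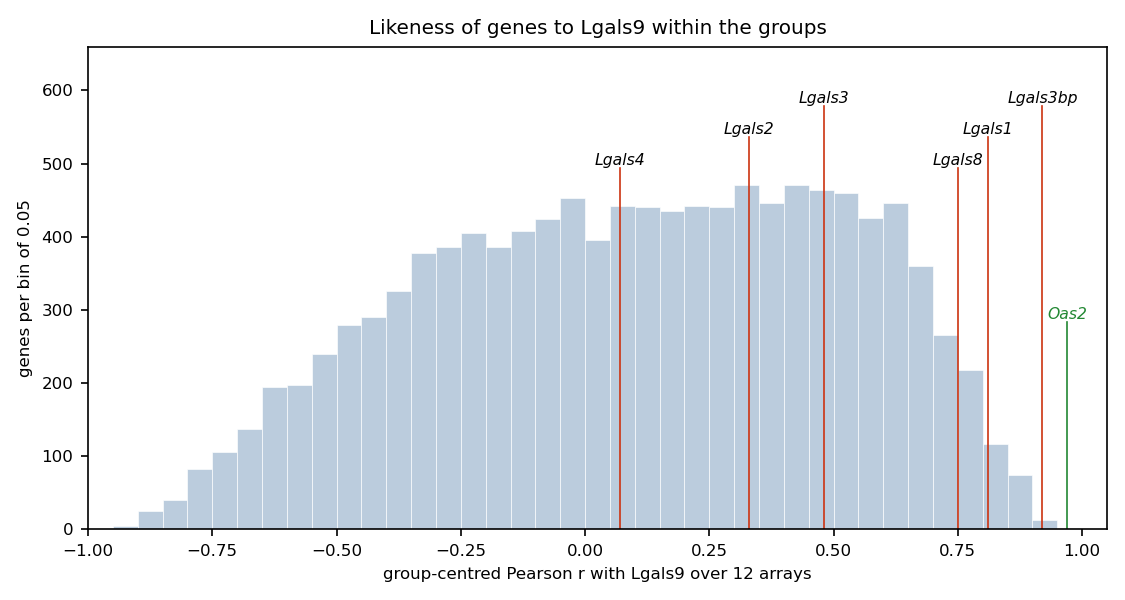
Histogram of the Pearson correlation with Lgals9 over 12 arrays, each taken as its deviation from the mean of its own group, for 11583 protein-coding genes above the median row. Red lines mark the 6 other family members, from Lgals4 at 0.07 to Lgals3bp at 0.92, and the green line marks Oas2 at 0.97.

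The genes most like Lgals9 were found over 11583 protein-coding genes above the median row and without shared values, by the Pearson correlation of the 12 arrays' deviations from their own group's mean. Its median over these genes was 0.12, and 15 genes (0.13%) exceeded 0.9. The first was Oas2, an antiviral oligoadenylate synthetase gene, at 0.97. Next came Eepd1, an endonuclease family gene, and Dbnl, an actin-binding adaptor gene, both at 0.95. Irf9, whose product is the DNA-binding subunit of the interferon-activated complex that recognises the response element searched above, followed at 0.94, and Lgals3bp was the fifth at 0.92. The adaptor complex gene Ap4b1, the monocyte chemokine gene Ccl8, the Rab exchange factor gene Dennd1c, the tudor domain gene Tdrd7 and the interferon-induced kinase gene Eif2ak2 completed the first 10, each at 0.91. These values are a description of 12 arrays, with no test, and the 6 HuR arrays carry most of the variation. Some of the 10 genes varied little. Within the HuR group the SD was 0.05 for Eepd1, 0.14 for Dbnl and Ap4b1 and 0.15 for Dennd1c and Tdrd7, against 1.58 for Lgals9. For the others it ran from 0.45 for Irf9 to 1.48 for Oas2.

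The 10 genes had unlike differences between genotypes of their own. Oas2 differed between genotypes by 2.46 (SE 0.578), Ccl8 by 1.83 (SE 0.518), Lgals3bp by 1.44, Eif2ak2 by 0.80 (SE 0.266) and Irf9 by 0.64 (SE 0.186). The other 5 had differences from -0.01 for Eepd1 to 0.08 for Dennd1c and Tdrd7. At the opposite end stood the osteocalcin genes Bglap2 and Bglap at -0.94 and -0.92, which are close relatives and may share probes, the splicing factor gene Snrpa1 at -0.91, and the potassium channel gene Kcnk1 and the glycosyltransferase gene Extl1 at -0.90. Among the family, Lgals1 ranked at 179 of 11583 with 0.81, Lgals8 at 397 with 0.75, Lgals3 at 2578 with 0.48, Lgals2 at 3927 with 0.33 and Lgals4 at 6225 with 0.07. The 25 ranked interferon genes had a median of 0.84, against 0.12 over all ranked genes. Of these 25, 3 exceeded 0.9, as 0.13% of all ranked genes did. Other lists also had medians above that of all genes, at 0.74 for macrophages, 0.68 for T cells and 0.67 for adipocytes. It was 0.62 for fibroblasts and stellate cells, 0.13 for endothelium and -0.34 for the acinar list.

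**Figure D5:**
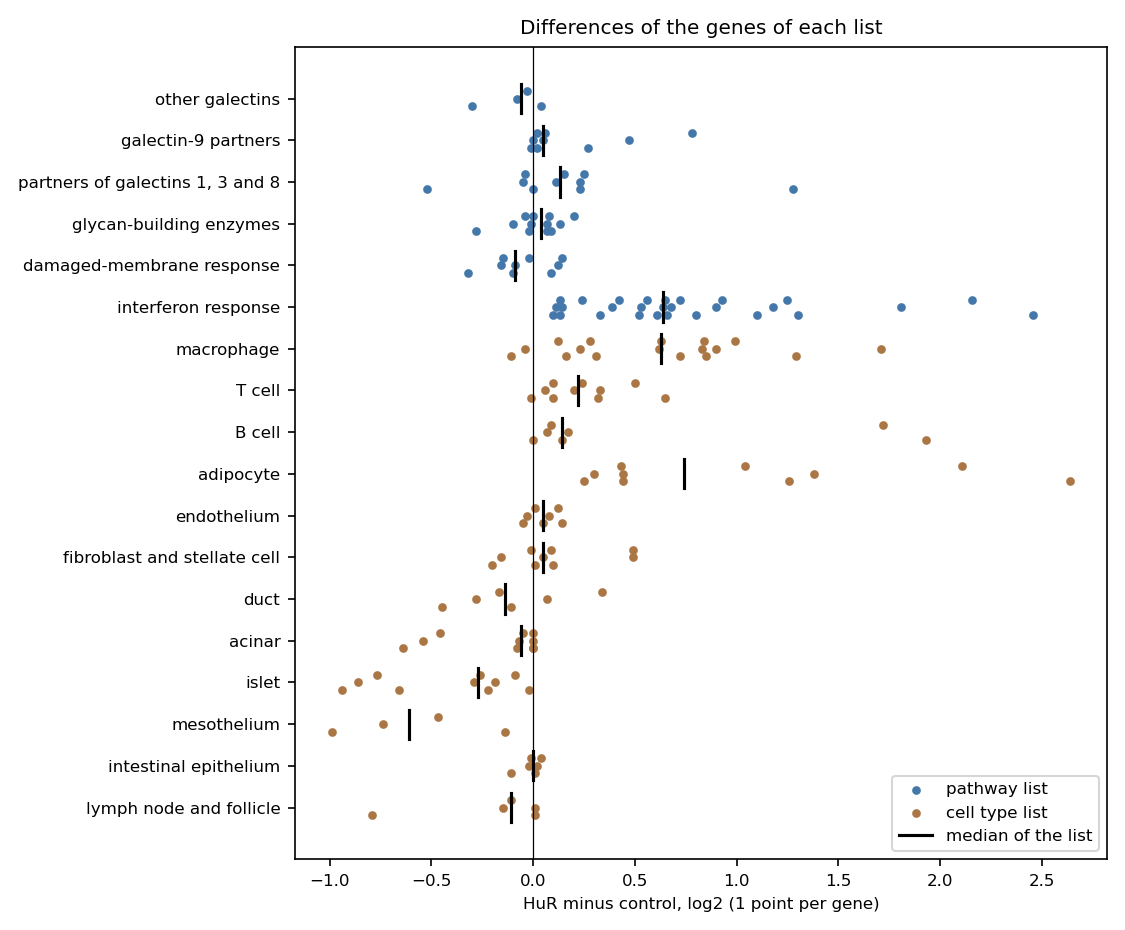
HuR minus control differences on the log2 scale of the measured genes of 18 lists, 1 point per gene, with the median of each list as a vertical bar. The medians run from -0.61 for the mesothelium to 0.74 for adipocytes, and all 28 interferon genes lie to the right of 0.

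Interferon genes, among which galectin-9 is often counted, had higher HuR than control means in 28 of the 28 genes measured, where 47.9% of all genes did. For 19 of the 28 the unadjusted p was under 0.05 as well, which held for 2.98% of all genes in that direction, and 0 reached the limma threshold. The median difference was 0.64 against 0.00 over all genes. This list, like the others, was chosen with earlier results of these data known, so its counts are a description. Of the 28 genes, 26 lay above the median row. Averaged over the list, controls stood at 5.74 ± 0.23 (SD, n = 6) and HuR samples at 6.51 ± 0.57 (SD, n = 6). The differences were uneven and ran from 0.10 (SE 0.0573) for Cxcl10, below the median row, to 2.46 (SE 0.578) for Oas2. Bst2, which encodes the antiviral protein tetherin, differed by 2.16 (SE 0.458), and Isg15 by 0.13 (SE 0.0734). Without the arrays that stood apart the list mean differed by 0.70 rather than 0.77.

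Markers of several immune cells and of adipocytes also had higher means in the HuR samples. Over all genes 47.9% had a higher mean, and 2.98% were higher with an unadjusted p under 0.05. In whole tissue more cells of a type cannot be told apart from more RNA per cell. The macrophage list, with 16 of 17 genes above the median row, ran from 6.62 to 7.98 in the controls and from 7.04 to 9.01 in the HuR samples, with 15 of 17 genes higher, 4 at an unadjusted p under 0.05 and a median difference of 0.63. Mpeg1, a pore-forming protein gene of macrophages, differed by 1.29 (SE 0.308), and Ms4a7, a macrophage surface gene, by 0.84 (SE 0.221). Without the arrays that stood apart the macrophage mean differed by 0.52 rather than 0.61. Of the T cell genes 9 of 10 were higher, with 6 of 10 above the median row, a median of 0.22 and list means of 4.65 to 4.87 against 4.76 to 5.27. Cd3g and Cd8b1, subunits of the T cell receptor complex and coreceptor, differed by 0.32 (SE 0.0844) and 0.24 (SE 0.0749), the latter below the median row. Of the adipocyte genes 10 of 10 were higher, with list means of 6.11 to 8.33 against 6.74 to 9.58, and Pparg and Car3 differed by 0.44 (SE 0.161) and 2.64 (SE 1.03). For B cell genes 6 of 7 means were higher, with a median of 0.14 and overlapping list means of 5.12 to 7.67 against 5.43 to 7.67. Jchain, the immunoglobulin joining chain gene, and the heavy chain gene Ighm differed by 1.72 (SE 0.571) and 1.93 (SE 1.33). The other measured B cell genes differed by only 0.00 (SE 0.207) for Cd79a to 0.17 (SE 0.31) for Cd79b. The part of these cells in the level of Lgals9 was not tested.

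The remaining lists had medians on both sides of 0, and 15718 of all 30142 genes had a lower mean in the HuR samples. The median was 0.05 for endothelium, where Pecam1 and Eng differed by 0.14 (SE 0.111) and 0.12 (SE 0.16), and 0.05 for fibroblasts and stellate cells, where Postn and Lum each differed by 0.49 (SE 0.485 and 0.515). The mean of the fibroblast and stellate cell list differed by 0.10, and by -0.07 without the arrays that stood apart. For ducts the median was -0.14, where the epithelial adhesion gene Epcam differed by 0.34 (SE 0.106) and the keratin gene Krt7 by -0.17 (SE 0.0834). For the acinar list it was -0.06, with 4 of 10 genes at the scale's upper limit on every array as strongly expressed acinar enzymes of pancreas, and with Bhlha15 at -0.64 (SE 0.265) and Ctrc at -0.54 (SE 0.266). Islet genes were lower in 10 of 10 with a median of -0.27, among them the incretin receptor gene Glp1r at -0.77 (SE 0.126) and Pdx1, whose promoter drives Cre here, at -0.26 (SE 0.092). Mesothelial genes were lower in 4 of 4 with a median of -0.61, with Msln at -0.47 (SE 0.23) and Lrrn4 at -0.74 (SE 0.468). The intestinal and the lymph node lists had medians of 0.00 and -0.11, and their members with the smallest p, Vil1 at -0.11 (SE 0.0581), Cdx2 at 0.04 (SE 0.053), Madcam1 at -0.15 (SE 0.0794) and Fcer2a at -0.11 (SE 0.141), had no unadjusted p under 0.05. No gene of these lists reached the limma threshold, as 0 genes did over the whole table.

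Genes next to Lgals9 and Lgals3bp, which both lie on chromosome 11, had no difference of comparable size. The 3 nearest measured protein-coding genes on each side of Lgals9 in RefSeq order, which include the nitric oxide synthase gene Nos2 and the kinase scaffold gene Ksr1, differed by -0.16 (SE 0.153) for Ccnq to 0.20 (SE 0.124) for Wsb1. Around Lgals3bp the 6 neighbours differed by -0.38 (SE 0.472) for the protease inhibitor gene Timp2 to 0.07 (SE 0.0792) for C1qtnf1. These 12 genes were chosen by position, and Nos2 lay below the median row. Differences of at least 2-fold are rare in any case, with 0.594% of all genes higher and 0.0133% lower by that much.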

How the data were processed

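The deposited values are log2 expression values per transcript cluster that the authors made with RMA in Affymetrix Expression Console 1.4, per the submitters' processing notes and the labels; the sources used here do not state settings or build. Of 72688 rows, 6732 control rows were left out. By the platform annotation 30604 of 65956 rows had 1 gene symbol, 2146 several and 33206 none; 827 symbols were updated with RefSeq (GRCm38.p6). The row with the highest mean was taken, which left 30142 genes.

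HuR minus control was fitted over all genes with limma 3.58.1 in R 4.3.3 (lmFit, eBayes, Benjamini-Hochberg), without a block. On simulated data for this comparison over 30142 genes, 64% of 50 genes changed by 0.5 were recovered, 96% at 1, 98% at 2 and 100% at 4, with 9 of 188 calls false. The changed genes were picked at random, and each gene varied independently with its own measured spread. Effects shared by the genes of an array were not simulated, so these shares do not give the power on the measured arrays. There 179 genes had at least a 2-fold higher mean, and 0 were called. Exact permutations ran in Python 3.11.15 with scipy 1.17.1. The number of arrays limits the precision.

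Groups follow the sample titles. The members, the 18 lists, the tests and the alternatives were chosen with earlier results of these data known. Named were all members, further galectins and galectin-9 partners, the 2 genes of each other list with the smallest p, and the 10 genes most and 5 least like Lgals9, without predicted genes, unnamed clones, RNA genes and antigen receptor segments.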

Additional observations from a re-analysis of the deposited data

Results flagged for a closer look

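In a check of 22 groups of 6 arrays, a value for each galectin gene and genotype, 2 arrays lay far from the rest of their group by Dixon's criterion, which chance meets in about 1 in 20 groups. Lgals1 in control replicate 2 stood at 14.69, with a gap to the next control of 0.703 of the group's range. Lgals12 in HuR replicate 4 stood at 8.15, with a gap of 0.667 of the range. HuR replicate 4 was also the HuR array with the lowest Lgals9, Lgals3bp, Lgals1 and Lgals2.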

How the results depend on the processing

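The differences of all 7 members moved by less than 1 SD between arrays under every alternative run: the replicate block, the filter at the median row, quantile normalization, median centring, the mean of a gene's rows, trend and robust eBayes, array weights, the ordinary linear model and left-out arrays. Leaving out 1 array at a time gave 3.21 to 4.11 for Lgals9, 1.21 to 1.70 for Lgals3bp, 0.17 to 0.24 for Lgals3, -0.03 to 0.09 for Lgals8, -0.52 to -0.03 for Lgals1, -0.24 to -0.11 for Lgals2 and -0.05 to 0.00 for Lgals4. With the replicate number as a block the difference of Lgals9 kept its value of 3.61, with an SE of 0.466. With the block the SE was 0.128 for both Lgals3bp and Lgals1, against 0.39 and 0.372 without it. For Lgals4 it was 0.0453 against 0.0439. The labels do not say whether the numbers pair the samples, and the arrays do not settle it. Same-numbered arrays correlated by -0.079 to 0.636 in their deviations from the group means, with the highest value for replicate 2. Of 6 controls, 2 correlated best with their own number. The block called 0 genes with limma and gave 2496 at an unadjusted p under 0.05.

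The count of called genes with limma was 0 in each alternative except without HuR replicate 2, where it was 1 (the predicted gene Gm7003, at 0.44, SE 0.045, adjusted p = 0.0363). At a threshold of 0.1 there was 1 gene also without HuR replicate 4, Lgals9 itself (4.11, SE 0.45, adjusted p = 0.0678 with limma, in the contrast that chose it), and 1 without both arrays that stood apart, Gm7003 (0.42, SE 0.0433, adjusted p = 0.0853 with limma). Counts at an unadjusted p under 0.05 ran from 1405 without HuR replicate 6 to 2496 with the block, the latter leaving 0 called. Of the 9 relations, 5 stayed called by Spearman's rho, 7 with list medians, 9 with median centring and 8 with quantile normalization, out of 5, 7, 11 and 10 calls among the 48. Lgals9 with Lgals3bp in the HuR arrays gave 0.94 by Spearman's rho (adjusted p = 0.0727). With the interferon list it gave 0.83 by rho in the controls (adjusted p = 0.187) and 0.90 with the list median in the HuR arrays (adjusted p = 0.0667). The fit without the 2 farthest arrays gave 0.98 for Lgals3bp in the HuR arrays, and 0.89 in the controls and 0.95 in the HuR arrays for the interferon list. With a replicate number left out, Lgals3bp ran from 0.59 to 0.91 in the controls and from 0.99 to 1, after rounding, in the HuR arrays, and the interferon list from 0.88 to 0.98 and from 0.88 to 0.96. With 5 or 4 arrays the smallest exact permutation p is 0.00833 or 0.0417, and 0 of 48 relations passed adjustment there. For Lgals3bp, r in the controls fell to 0.59 without replicate 2.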

Other observations

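Lgals9 was also listed for arrays of both genotypes whose interferon levels lay near each other. Control replicates 2 and 6 had means of the interferon list of 6.13 and 5.91 and Lgals9 levels of 8.57 and 8.00. HuR replicates 1, 4 and 5 had list means of 6.16, 5.88 and 5.97, within or close to the range of those controls, and Lgals9 levels of 11.39, 8.95 and 10.45. These 5 arrays were picked by their list means after the values were seen, and no test was made. Every HuR array lay above every control in Lgals9, a separation that its choice had used. Any match of a HuR array with a control thus gives a higher Lgals9 level in the HuR array. The part of the interferon response in the level of Lgals9 was not tested.

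The level of Elavl1, the gene of HuR itself, was set against Lgals9 within each genotype after the data were seen. Among the HuR arrays r was 0.47 (exact permutation p = 0.349, adjusted p = 0.349 over 2 relations, n = 6) and rho 0.37 (exact permutation p = 0.497), or r = 0.41 without the 2 arrays farthest from the median of Lgals9. Among the controls r was 0.76 (exact permutation p = 0.05, adjusted p = 0.1, n = 6) and rho 0.83 (exact permutation p = 0.0583), or r = 0.52 without the 2 farthest arrays. HuR replicate 4, with the lowest Lgals9 of its group, had an Elavl1 level of 6.24, near the group mean of 6.23, while replicate 5 had the lowest, at 6.05. Whether the Elavl1 row detects the transgene's message was not examined, so these values are no measure of HuR protein.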
